A study of Homo sapiens with 4 samples.

Results

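Exon use was described in 32 genes whose splicing separates epithelial from mesenchymal cells, in the established human breast cancer line MDA-MB-231 (triple-negative, here the parental line) and in MDA-LM2, a derivative that metastasises strongly to the lung. The genes were named from a fixed list, and their exons were every listed skipped exon that lay on the same strand inside one of them. They held 129 of the 37641 skipped exons listed for the 2 lines, from 151 events, where an event is an alternative exon with its 2 flanking exons. Total RNA came from 2 samples per line that received no treatment and were made into ScriptSeq v2 libraries, and the labels do not say whether these were separate cultures. Each deposited table holds 1 set of values per line and names no replicate, so each line counts here as 1 pooled library without replicate error, although no source read here states that both samples entered it, and no p-value is given. The tables were compared as LM2 against the parental line, to ask how exon use differs between the highly metastatic derivative and the line it came from.

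Epithelial cells adhere to each other and are polarised, whereas mesenchymal cells are motile, and passage between these states changes exon choice in many genes of adhesion, the cytoskeleton and signalling. ESRP1 and ESRP2 are RNA-binding proteins of epithelial cells that direct the epithelial choice, and RBFOX2, QKI and other proteins act on many of the same exons. MDA-MB-231 is widely used as a mesenchymal-like breast cancer line. For 3 of the 32 genes the form of each state is given here as background. The actin regulator ENAH includes its exon 11a in epithelial cells and lacks it in mesenchymal cells. The receptor FGFR2 uses exon IIIb in epithelial cells and exon IIIc in mesenchymal cells. The calsyntenin CLSTN1 is described with its exon 11 mainly skipped in epithelial and included in mesenchymal cells. For exons of the other 29 genes no epithelial or mesenchymal name is assigned here, and the form of each line is given as included, skipped or not settled.

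The exons on which the description turns are shown in the sense of the transcript, 5′ to 3′, from GENCODE release 29 transcripts (hg38). Capitals mark the alternative exon, and the 15 lower-case bases on each side belong to the flanking exons that are joined to each other when the exon is skipped. ENAH (chr1:225504991-225505053, minus strand) and CLSTN1 (chr1:9737498-9737554, minus strand) are shown for their known forms. SYTL2 (chr11:85711113-85711232, minus), APLP2 (chr11:130137256-130137291, plus), OSBPL3 (chr7:24863200-24863292, minus), SPAG9 (chr17:50975863-50975901, minus) and a pair of versions of a UAP1 exon (chr1:162592732-162592782 and chr1:162592735-162592782, plus) are shown because their odds of inclusion over exclusion reads differed between the libraries beyond counting error, as the values that follow show. Exons of WNK1 (1239 nt), SPAG9 (42 nt) and MYOF (39 nt) with such a difference are not shown.
ENAH exon of 63 nt: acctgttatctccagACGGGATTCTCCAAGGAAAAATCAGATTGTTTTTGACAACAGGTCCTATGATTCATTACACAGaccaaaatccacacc
CLSTN1 exon of 57 nt: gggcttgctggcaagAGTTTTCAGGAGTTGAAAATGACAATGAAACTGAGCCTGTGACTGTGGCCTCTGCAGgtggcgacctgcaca
SYTL2 exon of 120 nt: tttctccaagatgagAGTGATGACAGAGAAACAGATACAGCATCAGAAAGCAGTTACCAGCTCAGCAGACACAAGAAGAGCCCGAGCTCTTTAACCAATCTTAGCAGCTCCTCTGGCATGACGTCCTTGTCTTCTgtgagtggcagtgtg
APLP2 exon of 36 nt: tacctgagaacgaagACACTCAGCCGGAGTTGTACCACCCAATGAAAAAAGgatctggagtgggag
OSBPL3 exon of 93 nt: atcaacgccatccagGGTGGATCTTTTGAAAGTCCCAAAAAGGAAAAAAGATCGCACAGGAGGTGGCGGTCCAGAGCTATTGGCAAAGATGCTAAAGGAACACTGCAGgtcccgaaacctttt
SPAG9 exon of 39 nt: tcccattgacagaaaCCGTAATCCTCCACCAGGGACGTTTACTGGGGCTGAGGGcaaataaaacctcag
UAP1 exon of 51 nt: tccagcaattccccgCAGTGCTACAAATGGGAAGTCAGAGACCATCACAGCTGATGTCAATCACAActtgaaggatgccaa
UAP1 exon of 48 nt: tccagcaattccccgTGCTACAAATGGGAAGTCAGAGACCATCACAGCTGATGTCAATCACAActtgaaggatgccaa
The shorter UAP1 exon lacks the first 3 bases of the longer one and ends at the same place.

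Summed over all events, in which a read can count more than once, 17366605 reads in LM2 and 21716937 in the parental line fit at least 1 isoform. Of the 129 exons, 101 had at least 10 reads that fit only the inclusion or only the exclusion isoform in each library, and these are called measurable. They lay in 31 of the 32 genes, FGFR2 being the exception. An exon was called alternative where, in addition, its rarer class had at least 3 reads in 1 library and its read-based level lay between 0.05 and 0.95 in at least 1 line. For the read-based level the inclusion reads were divided by 2 and set over the sum of that number and the exclusion reads. The divisor stands for the 2 junctions of inclusion and was the same for every exon. Inclusion reads can also fall inside the exon, so this level can run high in long exons. In LM2, PDLIM5 versions of 419 and 92 nt between the same flanks had 1232 and 269 inclusion reads. By this definition 42 exons in 21 genes were alternative, or 41.6% of the measurable exons, against 30.5% of the 21625 measurable exons of all genes. Since the genes were chosen for known exon choices, the higher share is no independent result, and the part of read depth in it was not tested. Informative reads per alternative exon ran from 10 to 1348 in LM2 (median 92.5) and from 10 to 2050 in the parental line (median 130). Intervals given with reads are exact Clopper-Pearson 95% intervals and cover counting error only, and the confidence level behind the deposited intervals is not known here.

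No alternative exon of these genes was included in one line and skipped in the other, which was also rare over all genes. A line was said to show the included form where the whole deposited interval and the read-based level were above 0.5, and the skipped form where both were below 0.5. Of the 42 alternative exons, 20 were skipped in both lines, 8 were included in both, and 0 were included in one and skipped in the other. In 6 exons, of OSBPL3, WNK1, SYTL2 (2 exons) and TCF7L2 (2 exons that share flanks), LM2 was skipped and the parental line not settled, in 2 exons (APLP2 of 36 nt and WNK1 of 84 nt) LM2 was included and the parental line not settled, and 6 were not settled in either. Over all 6592 alternative exons 9, or 0.137%, had opposite forms, so a count of 0 among 42 is near the background. The same settled form was seen in 28 of the 42 (66.7%), against 69.9% over all genes. A form settled in 1 line only was seen in 19.0%, against 12.7%, and in neither line in 14.3%, against 17.2%. A form settled in 1 line only need not mean a difference. WNK1 (84 nt) had read-based levels of 0.765 in LM2 and 0.771 in the parental line. The TCF7L2 exons had deposited levels of 0.19 and 0.21 in LM2 and 0.17 and 0.18 in the parental line. Their parental read-based level was 0.667. Read odds did differ in APLP2, OSBPL3, SYTL2 (120 nt) and WNK1 (1239 nt), as given below. The plot of inclusion levels shows each exon in both lines.

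**Figure D1:**
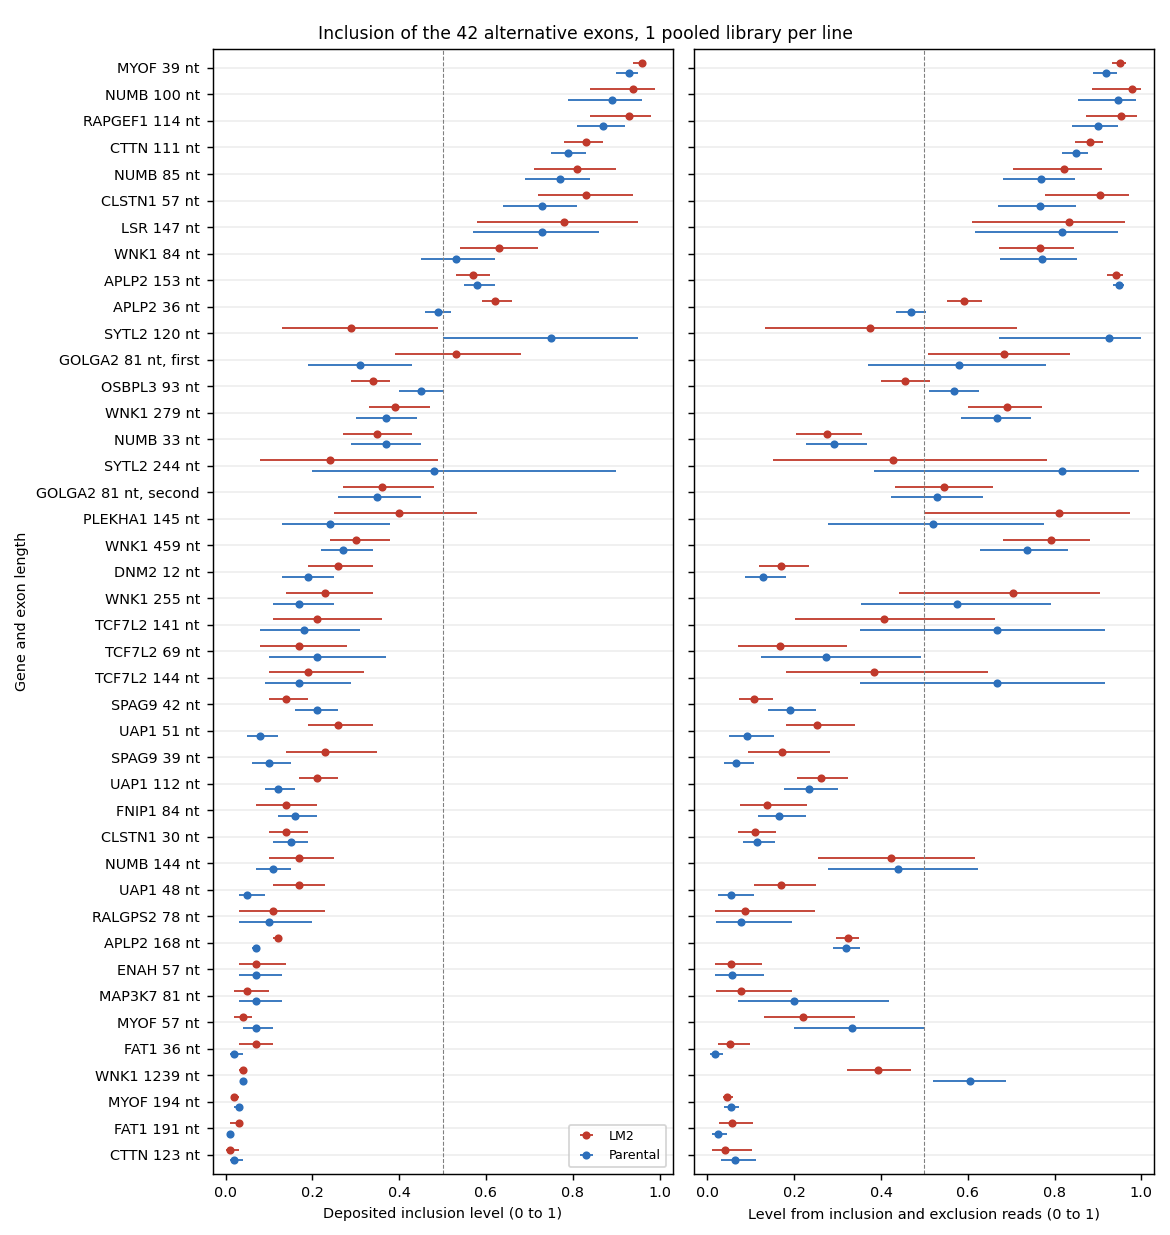
Inclusion level (0 to 1) of the 42 alternative exons in LM2 (red) and the parental line (blue), ordered by deposited level. The left panel gives the deposited level with its deposited interval, the right panel the read-based level with its exact 95% interval, and the dashed line marks 0.5. In the order of the transcript the first GOLGA2 exon is labelled first. LM2 and parental points lie close together in most rows, and the SYTL2 exon of 120 nt stands apart.

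ENAH, which extends actin filaments at the leading edge, showed its mesenchymal form in both lines. Exon 11a, the 63-nt exon, had deposited levels of 0.03 (0.02 to 0.05) for LM2 and 0.05 (0.03 to 0.07) in the parental line. LM2 had 12 inclusion and 201 exclusion reads, and the parental line 16 and 190, so the read-based levels were 0.0290 (0.0149 to 0.0506) and 0.0404 (0.0230 to 0.0656). The intervals of the lines overlapped, and the log2 odds ratio of inclusion over exclusion reads, LM2 over parental, was -0.48 (exact 95% interval -1.75 to 0.72). This exon is not among the 42, since its read-based level is below 0.05 in both lines. A 57-nt coding exon of ENAH was also skipped, at 0.07 in each line with 5 inclusion reads in each, and a 12-nt exon with the same flanking exons had 0 inclusion reads.

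CLSTN1, a transmembrane protein that links cargo to kinesin motors, also showed its mesenchymal form in both lines. The 57-nt exon stood at 0.83 (0.72 to 0.94) in LM2 and at 0.73 (0.64 to 0.81) in the parental line. LM2 had 75 inclusion and 4 exclusion reads, and the parental line 125 and 19, which gave read-based levels of 0.904 (0.778 to 0.972) and 0.767 (0.669 to 0.850). The intervals overlapped and the log2 odds ratio was 1.38 (-0.16 to 3.57), so a difference was not resolved at this depth. A separate 30-nt CLSTN1 exon was mostly skipped, with 27 inclusion and 111 exclusion reads in LM2 and 40 and 154 in the parental line, at levels of 0.14 and 0.15.

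FGFR2, a fibroblast growth factor receptor, could not be assigned a form. Each of its 6 listed exons was in the table of 1 line only. The event of exon IIIb (148 nt) was listed in the parental table with 0 inclusion reads, 0 exclusion reads and 1 read that fits both isoforms, and its deposited level of 0.43 had an interval of 0.05 to 0.86. No event with exon IIIc as the middle exon was analysed here.

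In SLK, MAP3K7, TCF7L2, FNIP1 and RALGPS2 the exon described here was skipped in both lines, while MAP3K7 (116 nt), TCF7L2 (102 nt), FNIP1 (135 nt) and RALGPS2 (105 nt) also had an exon included in both. The Ste20-like kinase SLK skipped its 93-nt exon almost fully, at 0.02 (0.01 to 0.03) in LM2 and 0.01 (0.01 to 0.02) in the parental line, from 7 inclusion and 175 exclusion reads and from 11 and 269, in that order. MAP3K7, the TAK1 kinase of TGF-beta signalling, had an 81-nt exon at 0.05 (0.02 to 0.10) and 0.07 (0.03 to 0.13), from 4 inclusion and 24 exclusion reads and from 6 and 12. TCF7L2, a transcription factor of the Wnt pathway, had a 69-nt exon at 0.17 (0.08 to 0.28) and 0.21 (0.10 to 0.37), from 8 inclusion and 20 exclusion reads and from 9 and 12. In each of these exons the intervals of the lines overlapped. The 84-nt exon of FNIP1, a partner of folliculin, stood at 0.14 (0.07 to 0.21) and 0.16 (0.12 to 0.21) on 14 and 37 inclusion reads, and it lies in a second annotated gene on the same strand, so its reads cannot be assigned to FNIP1 alone. A 78-nt exon of the Ral activator RALGPS2 stood at 0.11 (0.03 to 0.23) and 0.10 (0.03 to 0.20), with 3 and 4 inclusion reads. RAPGEF1, an activator of the RAP1 GTPase, included its 114-nt exon at 0.93 (0.84 to 0.98) and 0.87 (0.81 to 0.92), with 122 inclusion and 3 exclusion reads beside 237 and 13.

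NUMB, an endocytic adaptor that restrains Notch signalling, had alternative exons of either kind. The 33-nt exon, which adds residues to its phosphotyrosine-binding domain, stood at 0.35 (0.27 to 0.43) in LM2 and 0.37 (0.29 to 0.45) in the parental line. LM2 had 50 inclusion and 66 exclusion reads, the parental line had 66 and 80, and the intervals overlapped. Included in both lines was an 85-nt exon of the 5′ untranslated region of NUMB, at 0.81 (0.71 to 0.90) and 0.77 (0.69 to 0.84), and since it also lies in a second annotated gene on that strand, its reads cannot be assigned to NUMB alone. The 144-nt exon of the proline-rich region had a deposited level of 0.17 (0.10 to 0.25) and 0.11 (0.07 to 0.15), but its read-based levels were 0.422 (0.255 to 0.617) and 0.440 (0.278 to 0.624). Those rest on 19 inclusion and 13 exclusion reads in LM2 and 22 and 14 in the parental line, beside 1571 and 2918 reads that fit both isoforms. The skipped form of this exon therefore holds by the deposited level and is not settled by the read interval.

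Cytoskeletal and membrane proteins held included and skipped exons. The 111-nt exon of CTTN, which encodes one of the actin-binding repeats of cortactin, stood at 0.83 (0.78 to 0.87) in LM2 and 0.79 (0.75 to 0.83) in the parental line, with 715 inclusion and 48 exclusion reads against 919 and 82. The 39-nt exon of MYOF, the membrane repair protein myoferlin, stood at 0.96 (0.94 to 0.97) and 0.93 (0.90 to 0.95), with 1314 and 34 reads against 726 and 32. A 194-nt exon of MYOF, found only in a transcript not annotated as protein coding, was skipped at 0.02 (0.02 to 0.03) and 0.03 (0.02 to 0.04). LSR, a protein of tricellular junctions, included its 147-nt exon at 0.78 (0.58 to 0.95) and 0.73 (0.57 to 0.86), on only 3 and 4 exclusion reads. Skipped were a 12-nt exon of the membrane-fission GTPase DNM2, at 0.26 (0.19 to 0.34) and 0.19 (0.13 to 0.25), and 2 exons of the atypical cadherin FAT1. The FAT1 exon of 191 nt had 10 inclusion and 83 exclusion reads in LM2 and 9 and 181 in the parental line, and shares its exclusion reads with a 36-nt exon between the same flanks. GOLGA2, the Golgi matrix protein GM130, had 2 exons of 81 nt, neither settled. The one with more exclusion reads stood at 0.36 (0.27 to 0.48) and 0.35 (0.26 to 0.45), with 67 inclusion and 28 exclusion reads against 74 and 33.

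Of the 101 measurable exons, 1 was called different between the lines, in SYTL2, an effector of the RAB27 GTPase in secretion. A call required, in the authors' deposited table, a difference of 0.2 or more together with a Bayes factor of 10 or more, and 1.11% of all 21625 measurable exons met it, 0.851% higher and 0.254% lower in LM2. The 120-nt coding exon of SYTL2 stood at 0.29 (0.13 to 0.49) in LM2 and 0.75 (0.50 to 0.95) in the parental line, and the authors' deposited table gives a difference of -0.46 and a Bayes factor of 13.45. It rested on 6 inclusion and 5 exclusion reads in LM2 and 25 and 1 in the parental line, so the read-based levels were 0.375 (0.132 to 0.713) and 0.926 (0.672 to 0.998). LM2 was therefore in the skipped form and the parental line not settled, with read intervals that overlap. In a second event with the same exon and another upstream exon, levels were 0.30 (0.09 to 0.62) and 0.53 (0.26 to 0.82), exclusion reads were 0 in both libraries, and the authors' deposited table gives a Bayes factor of 0.96. The share called among the 32 genes, 0.990%, was close to that of all exons.

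With the limit on the difference lowered to 0.1, 5 exons passed, 3 higher and 2 lower in LM2, against 1.72% of all measurable exons (1.27% higher, 0.458% lower). The higher exons were the 2 versions in UAP1 and the 36-nt exon of APLP2, and the lower were those of SYTL2 and of PTPRF. UAP1 makes UDP-N-acetylglucosamine, and its forms AGX1 and AGX2 differ by the 17 codons of the 51-nt exon. That exon stood at 0.26 (0.19 to 0.34) in LM2 and 0.08 (0.05 to 0.12) in the parental line, with 40 inclusion reads against 14 and 59 exclusion reads against 69. Both lines thus skipped it in most transcripts, while the intervals did not overlap, and the authors' deposited table gives a Bayes factor of 217. The 48-nt version stood at 0.17 (0.11 to 0.23) and 0.05 (0.03 to 0.09), and it shares the exclusion reads of the 51-nt exon, so the 2 are not separate observations. The UAP1 exon with most reads of its rarer class was a different one, of 112 nt and without an exact match in the annotation. It was skipped at 0.21 (0.17 to 0.26) and 0.12 (0.09 to 0.16), intervals that did not overlap, while the read-based levels of 0.262 (0.207 to 0.324) and 0.233 (0.176 to 0.30) did. In its other event, with another upstream exon, the levels were 0.24 (0.19 to 0.30) and 0.11 (0.08 to 0.14), and the authors' deposited table gives a Bayes factor of 25871. That event had 0 exclusion reads in LM2 and 1 in the parental line.

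APLP2, a relative of the amyloid precursor protein, had the best covered of these differences. Its 36-nt coding exon stood at 0.62 (0.59 to 0.66) in LM2 and 0.49 (0.46 to 0.52) in the parental line, with 557 inclusion and 192 exclusion reads against 559 and 317. The read-based levels, 0.592 (0.551 to 0.632) and 0.469 (0.434 to 0.504), did not overlap either, and LM2 showed the included form while the parental line was not settled. The 168-nt exon of APLP2, which encodes a Kunitz protease inhibitor domain, behaved otherwise. Its deposited levels were 0.12 (0.11 to 0.13) and 0.07 (0.06 to 0.07), and the Bayes factor was at its cap in the authors' deposited table, but the read-based levels were 0.323 (0.297 to 0.350) and 0.320 (0.290 to 0.351). LM2 had 529 inclusion and 555 exclusion reads and the parental line 397 and 422, while reads that fit both isoforms were 5509 and 8407. PTPRF, the receptor phosphatase LAR, had a 306-nt exon at 0.27 (0.20 to 0.35) and 0.46 (0.37 to 0.56) with 0 exclusion reads in either library and 60 and 133 inclusion reads. No read thus fitted the exclusion isoform alone, while 202 and 255 reads fit both isoforms, and its form was not settled in either line. The smaller exons of PTPRF, of 12 to 33 nt, were skipped in both lines.

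The read odds of inclusion gave a description that does not use the reads fitting both isoforms. The exact interval of the odds ratio excluded 1 in 9 of the 42 alternative exons, 5 higher and 4 lower in LM2, which is 21.4% against 11.6% of the 6592 alternative exons of all genes (5.87% higher, 5.70% lower). The 42 exons were read more deeply, with medians of 92.5 informative reads in LM2 and 130 in the parental line against 51.0 and 66.0 over all genes, and the part of depth in the higher share was not tested. The 5 higher exons were those of UAP1 (log2 odds ratio 1.71, 0.66 to 2.86, for 51 nt and 1.75, 0.47 to 3.27, for 48 nt), the 39-nt exon of SPAG9, the 39-nt exon of MYOF (0.77, 0.01 to 1.52) and the 36-nt exon of APLP2 (0.72, 0.40 to 1.04). Lower were exons of SYTL2 (-3.85, -10.00 to -0.75), WNK1, SPAG9 and OSBPL3. These 9 exons were picked out by their values.

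OSBPL3, a lipid-transfer protein of the oxysterol-binding family, had a 93-nt exon at 0.34 (0.29 to 0.38) in LM2 and 0.45 (0.40 to 0.50) in the parental line. LM2 had 207 inclusion and 124 exclusion reads, and the parental line 266 and 101. LM2 lay below the parental line in both measures, with a log2 odds ratio of -0.66 (-1.14 to -0.18), and the authors' deposited table gives a Bayes factor of 9.61, just under the limit. The read-based levels were 0.455 (0.399 to 0.513) in LM2 and 0.568 (0.511 to 0.626) in the parental line, intervals that overlap slightly. For LM2 the skipped form thus holds by the deposited interval and is not settled by the read interval. SPAG9, the kinase scaffold JIP4, had a pair of small exons whose read odds differed in opposite directions while both were in the skipped form. The 39-nt exon stood at 0.23 (0.14 to 0.35) in LM2 and 0.10 (0.06 to 0.15) in the parental line (log2 odds ratio 1.54, 0.25 to 2.83). The 42-nt exon stood at 0.14 (0.10 to 0.19) and 0.21 (0.16 to 0.26) (log2 odds ratio -0.95, -1.76 to -0.16). In the authors' deposited table neither SPAG9 exon reached a Bayes factor of 10. WNK1, a kinase of ion transport, had a 1239-nt exon at 0.04 in each deposited table, while LM2 had 98 inclusion and 76 exclusion reads and the parental line 135 and 44 (log2 odds ratio -1.24, -1.94 to -0.56). Its read-based levels were 0.392 (0.321 to 0.469) and 0.605 (0.520 to 0.688), but the authors' deposited table gives a difference of 0 and a Bayes factor of 0.

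**Figure D2:**
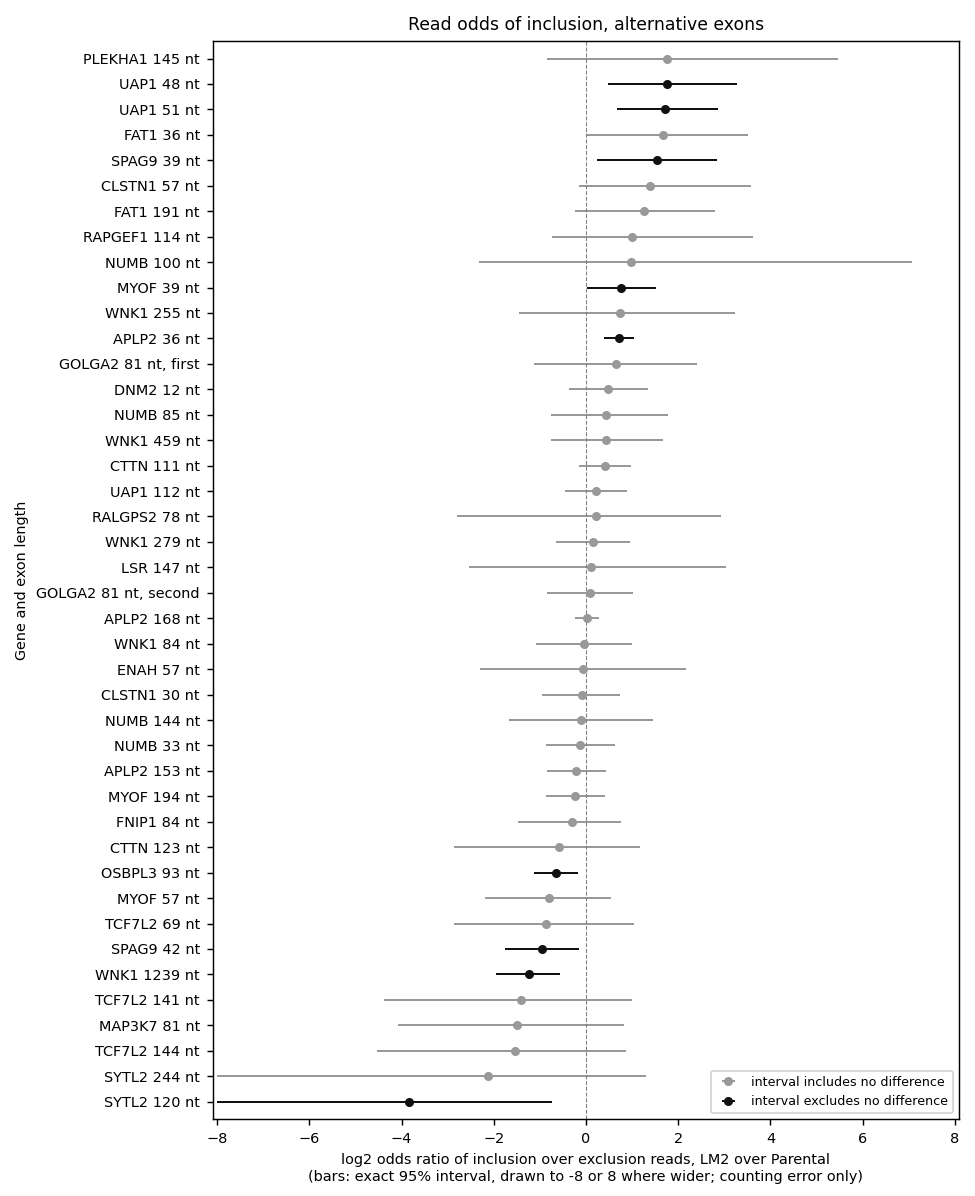
Log2 odds ratio of inclusion over exclusion reads, LM2 over parental, for the 42 alternative exons, with exact 95% intervals for counting error, drawn to -8 or 8 where wider. Points right of 0 had more inclusion in LM2, and black marks the 9 exons whose interval excludes no difference.

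The deposited level and the read-based level parted in some of these exons. The read-based level takes no account of exon length, and the part of length in this gap was not tested. In LM2 the deposited level was lower by over 0.2 in 8 of the 42 alternative exons, and in the parental line in 14, or 19.0% and 33.3%, against 17.0% and 18.6% over all genes. It was higher by over 0.2 in 0 exons of either line. WNK1 held several of these, such as the exons of 459 nt (0.30 against 0.792 in LM2) and 279 nt (0.39 against 0.689), as did the 145-nt exon of the phosphoinositide-binding protein PLEKHA1. That exon stood at 0.40 (0.25 to 0.58) in LM2 and 0.24 (0.13 to 0.38) in the parental line, and its read-based levels, 0.810 (0.502 to 0.974) and 0.520 (0.278 to 0.777), rest on 2 and 6 exclusion reads. A 41-nt version of it, for which the authors' deposited table gives a Bayes factor of 14.23, had 9 informative reads in the parental library and was not measurable. For exons that differ between the 2 measures the form was left as not settled unless both lay on one side of 0.5.

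**Figure D3:**
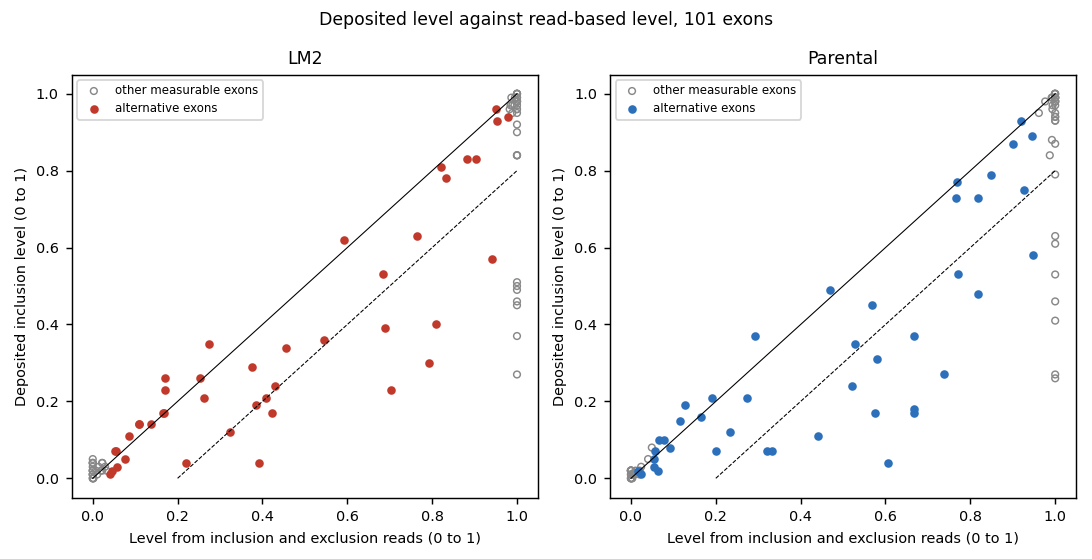
Deposited inclusion level (y, 0 to 1) against the level from inclusion and exclusion reads (x, 0 to 1) for the 101 measurable exons, in LM2 and the parental line. Filled points are alternative exons, the solid line marks equal values, and below the dashed line the deposited level is lower by over 0.2, as in 8 alternative exons of LM2 and 14 of the parental line.

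The remaining 10 measurable genes had no alternative exon. They were BAIAP2, CSF1, DNAJC3, INF2, PDLIM5, PDLIM7, PTPRF, SLC37A2, SLK and VPS39. PDLIM5 and PDLIM7, adaptors that bind the actin cytoskeleton through a PDZ domain, skipped exons of 18 nt (0.04 and 0.02) and 17 nt (0.02 and 0.01), and the formin INF2 included its 108-nt exon at 0.99 in both. The 99-nt exon of BAIAP2, a protein that bends membranes at filopodia, was skipped at 0.02 in both lines, and the 57-nt exon of the sugar-phosphate exchanger SLC37A2 at 0.01 in both. VPS39, a subunit of the HOPS tethering complex, skipped its 33-nt exon at 0.04 (0.00 to 0.13) and 0.08 (0.01 to 0.19), with 0 and 3 inclusion reads. The chaperone partner DNAJC3 included its 153-nt exon at 0.98 in both lines, with 0 exclusion reads. The cytokine CSF1 included its 546-nt exon at 0.97 in both, and its 250-nt exon (0.50 and 0.26) had 0 exclusion reads. Over all 31 measurable genes, 11 measurable exons had at most 30 nt, and 2 of these were alternative. Each of the 11 was in the skipped form in both lines, and 7 had 0 inclusion reads. The matching share over exons of all genes was not counted, so nothing particular to these genes can be read from it.

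The coding alternative exons kept the reading frame. Of the 42, 33 were wholly coding in at least 1 protein-coding transcript, and each of these 33 had a length divisible by 3, against 63.1% of the 2421 alternative coding exons of all genes. Among the other 44 measurable coding exons of these genes 30 had such a length. The median length of the 33 was 81 nt, against 102 nt for all alternative coding exons. The genes were chosen for known exon choices, so the shared frame describes them and is no independent result.

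Event reads gave a view of transcript level. A gene was represented by the event with most reads fitting at least 1 isoform, scaled to library totals, and fewer cells or less RNA per cell cannot be told apart in such data. Of the 31 measured genes, 0 were at least 2-fold different with an interval excluding 1, against 12.0% of 10213 genes (3.17% higher, 8.79% lower). MYOF was at the limit, with 2256 reads in LM2 and 1411 in the parental line, a ratio of 2.00 (1.87 to 2.14). SLC37A2 had 881 against 1895 reads, a ratio of 0.581 (0.536 to 0.630), and RAPGEF1 285 against 579, a ratio of 0.616 (0.532 to 0.711). SYTL2 had 109 against 138, a ratio of 0.988 (0.761 to 1.28). The median gene of the tables had a log2 ratio of -0.12, and the 31 genes had a median of -0.02 relative to it.

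**Figure D4:**
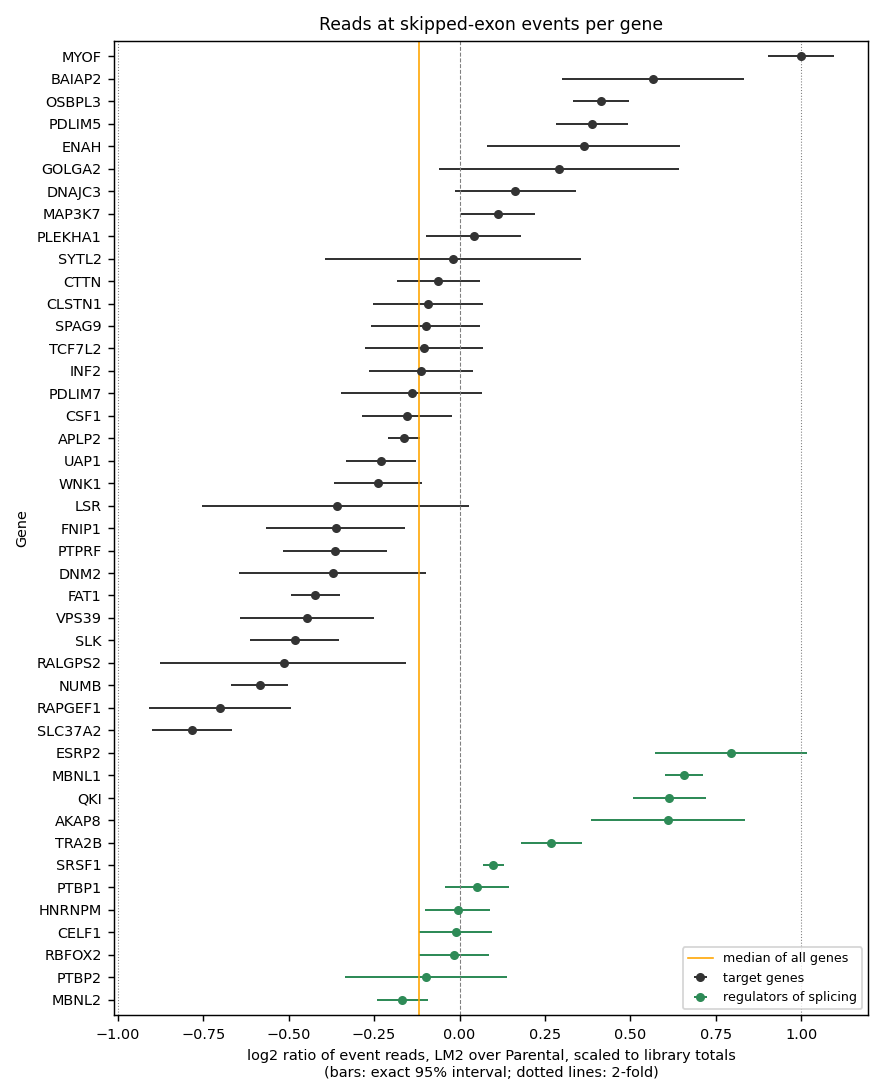
Log2 ratio of reads at skipped-exon events, LM2 over parental, scaled to library totals, for the 31 measured target genes (dark) and 12 regulators of splicing (green), with exact 95% intervals. RBM47 lies off the axis and is not drawn, and MYOF stands highest at 1.00.

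Of 15 listed regulators of splicing, 13 could be measured and 1 differed 2-fold. Over all 10213 genes 12.0% did, so a count of 1 among 13 is near the background. RBM47, an RNA-binding protein of epithelial cells, had 3 reads in LM2 and 186 in the parental line, a ratio of 0.0202 (0.00412 to 0.0599). ESRP1 had 3 reads in LM2 and 8 in the parental line, below the minimum of 20 over both libraries, and ESRP2 had 401 and 289 (ratio 1.74, 1.49 to 2.03). Whether these differences bear on the exons above was not tested. As a check of the lines, 4 of 14 epithelial and 5 of 10 mesenchymal markers had at least 20 event reads over both libraries. The epithelial ones were the keratin gene KRT8 with 6187 reads in LM2 and 5877 in the parental line, ESRP2, CLDN7 with 98 and 162, and the E-cadherin gene CDH1 with 11 and 13. The mesenchymal ones were AXL with 2883 and 3916 reads, FN1 with 1390 and 2350, ZEB1 with 580 and 1225, ZEB2 with 487 and 495, and TGFBI, while SPARC had 1 and 1. Markers of both states were thus read in both lines. The epithelial markers EPCAM, CRB3, CLDN3, CLDN4, GRHL2, OVOL1, RAB25, KRT18 and KRT19 had no event in both tables. The same held for the mesenchymal markers VIM, CDH2, SNAI2 and TWIST1. A gene without a skipped-exon event can still be expressed, so the level of these markers is not known here. Of 4 markers of blood, vessel and liver cells, only PTPRC had an event in both tables, with 5 reads in LM2 and 2 in the parental line. PECAM1, ALB and HBB had none, so their level is not known here either. Of the measured markers only TGFBI, a matrix protein induced by TGF-beta, differed 2-fold, with 265 reads in LM2 and 1410 in the parental line (ratio 0.235, 0.205 to 0.268). Beside the 12.0% of all genes, this count is also near the background.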

How the data were processed

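Skipped-exon usage was taken from 3 deposited tables, 1 per line and 1 comparing the lines. Per the submitters' processing notes, reads were aligned with STAR 2.7 to hg38, and per the file headers inclusion was estimated with MISO. MISO's version and settings are not stated in any source read here. Per the file headers, each line's table gives the inclusion level as a fraction, and raw read counts in 4 classes: fitting inclusion, exclusion, both or neither. The authors' deposited comparison gives the difference, a score equal to the LM2 minus the parental level within 0.0051 in all 39160 events compared, and the Bayes factor, a ratio with a cap.

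Where an exon had several events, the one with most inclusion plus exclusion reads stood for it. Genes, exons and sequences came from GENCODE release 29. For the odds ratio 0.5 was added to each count, and its interval used the counts as they were (exact conditional, SciPy 1.17.1, Python 3.11.15, checked on simulated reads). No test between samples was possible. Values are named for the alternative exon with most reads of its rarer class in each gene, exons called different, and exons of known form; others were chosen after their values were seen. The genes, lists and rules were chosen with earlier results of these data known. Read minimum, thresholds, event choice and scaling were varied.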

Additional observations from a re-analysis of the deposited data

How the results depend on the processing

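No paired analysis was possible because the tables hold 1 value per line and name no replicate (whether both samples entered a table is not known), and for the same reason no replicate could be left out. The count of different exons is small and moves with the settings. It was 1 as reported and 5 with a difference of 0.1. A Bayes factor of 5 gave 2 (CSF1 joins), and a Bayes factor of 20 gave 0. At least 5 reads gave 2 (PLEKHA1 joins), and at least 20 reads gave 0. The event with most reads in all classes gave 0, as did the median over events. Read-based levels gave 3 (2 in SYTL2 and 1 in PLEKHA1), counting only exons whose deposited difference had the same sign. That rule left out WNK1 (1239 nt) and TCF7L2 (144 and 141 nt). Their read-based differences were -0.213, -0.282 and -0.259, and their deposited differences 0, 0.02 and 0.03. SYTL2 stayed the 1 call with a difference of 0.3, with exons inside 1 gene, and under 2 settings added after the data were seen, at least 1 read of each class and exons alone between their flanks. The number of alternative exons ran from 32 to 48 over 5 alternatives, and opposite forms numbered 0 in each. Exons with the same settled form fell from 28 to 18 when levels of 0.1 to 0.9 were required, because fewer exons enter. Genes past 2-fold numbered 1, MYOF, with reads summed over events and 1, MYOF, when scaled to the median gene. The odds ratios of 27 exons stayed inside their intervals in 54 of 54 recalculations with another added count. Such a change is small beside intervals from the same counts, so this could hardly have come out otherwise. The event with most reads in all classes gave another odds ratio in 1 of the 27, the SYTL2 exon, where the log2 value went from -3.85 to -1.95 in an event with 0 exclusion reads. Motifs in the introns beside the exons were not run, since no genome sequence was used here. Few exclusion reads limit several exons, among them those of SYTL2, PLEKHA1 and LSR.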
